A study of Mus musculus with 4 samples.

Results

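The 10 hypoxia response genes, which cells switch on when oxygen is short, were followed in sections of mouse brain that held tumour: Slc2a1, Slc16a3, Car9, Vegfa, Adm, Egln3, Ankrd37, Ddit4, Bnip3 and Ndrg1. They were chosen by symbol, each of the 10 matched 1 row of the feature list, and they stand among 20457 features with counts that were used. Visium slides for fixed tissue (formalin-fixed, paraffin-embedded) were used, on which pairs of probes are ligated on their target RNA and captured by barcoded spots. The mice had a tumour inoculated into the brain and resected, and the tissue was taken at day 11. The design names a hydrogel-treated and a non-treated condition, taken here as TREAT and Vehicle. Inoculation and resection were common to both groups. The hydrogel, the strain, the age and the tumour cells are not given in the sources used here.

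Each group had 2 capture areas, named TREAT 1+4, TREAT 2+3, Vehicle 1+4 and Vehicle 2+3, and each area carried 2 pieces of tissue. The design states 4 animals for the whole series, and the labels do not tie a piece to an animal. For TREAT against Vehicle, the p-values below therefore measure the spread between capture areas, which may in part be technical. Where classes of spots within an area were compared, the area was a block. Those p-values measure how the difference within an area varied between areas. Sums and correlations pooled both pieces of an area unless values are given by piece. After leaving out spots under 500 UMIs (unique molecules counted), 13003 spots remained, with 34196413 to 56150197 UMIs per area. Levels are UMIs in CPM (counts scaled to the same total), from UMIs summed over the spots named in each area. The number of probe pairs differs between genes, so levels are compared between samples and not between genes.

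In cells with enough oxygen, prolyl hydroxylases such as Egln3 mark the alpha subunits of the hypoxia-inducible factors (HIF) for destruction through the Vhl protein. When oxygen falls, the alpha subunit is kept, pairs with Arnt and binds short response elements with the core ACGTG or GCGTG in its target genes. In glioblastoma these targets are best known from cells next to necrosis, and they serve glucose uptake, lactate and acid export, vessel growth and survival.

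Tumour spots were those of 2 regions found by clustering all spots, with the 10 genes and other hypoxia genes kept out of the clustering. The first of these regions was led by Lgals7 and the second by Col9a1, and both had 15 of 16 proliferation markers and 14 of the mesenchymal glioma markers at 2 or more times the median region. They numbered 181 and 556 spots in TREAT and 904 and 1249 spots in Vehicle, 2890 in all. The Col9a1-led region supplied 180 and 551 of the TREAT tumour spots, and the Lgals7-led region supplied 904 and 1240 of the Vehicle tumour spots. A comparison of the groups is thus largely one of these 2 regions. In TREAT 1+4 the right piece held 178 of the 181 tumour spots. In the other areas both pieces held tumour, so 7 of the 8 pieces had at least 20 tumour spots. The other regions with high proliferation markers were kept out. The Ccn5-led one carried reactive glia genes, with 233, 185, 88 and 308 spots in TREAT 1+4, TREAT 2+3, Vehicle 1+4 and Vehicle 2+3. The Igha-led one carried fibroblast and plasma cell genes, with 43, 2, 76 and 131 spots in the same order. Spot barcodes mark grid positions and are reused on every slide, so 2276 to 2746 of them were shared between any pair of areas.

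The genes divided by where in the tissue they were read. Slc16a3, Car9, Egln3 and Vegfa were higher in tumour, and Ndrg1, Bnip3, Ankrd37 and Adm were lower in tumour than in the rest of the tissue in every area. The rest of the tissue here leaves out the Ccn5-led and Igha-led regions. These are descriptions by area with no test.

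Slc16a3, which encodes the lactate exporter MCT4, had 85.6 and 111 CPM in TREAT tumour spots, against 4.77 and 5.39 CPM in other TREAT tissue. In Vehicle it had 190 and 167 CPM in tumour spots, against 8.66 and 11.8 CPM in other tissue. The log2 difference of tumour over other tissue was 3.82 to 4.46 over the 4 areas. Car9, the carbonic anhydrase that acidifies the space outside cells, had a log2 difference of 2.58 to 3.69. Its other-tissue level was 2.81 and 4.17 CPM in TREAT and 3.50 and 4.51 CPM in Vehicle. Car9 was also read in the Ccn5-led region, at 33.7 CPM, and in the Igha-led region, at 36.0 CPM. It had 34.1 CPM in the Lgals7-led and 26.5 CPM in the Col9a1-led tumour region. The Ccdc153-led region, which is part of the other tissue, had 32.3 CPM of Car9, with 21.1 to 115 CPM by area. Egln3, the oxygen-sensing hydroxylase that is itself induced by HIF, was 0.86 to 1.34 higher on the log2 scale in tumour. Its highest region was the Ccn5-led one, at 42.0 CPM.

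Vegfa, the ligand that drives vessel growth, was 0.07 to 0.39 higher in tumour on the log2 scale. Its highest region was a Ttr-led one of 40 spots outside the tumour, at 106 CPM. The Lgals7-led and Col9a1-led tumour regions had 65.0 and 46.8 CPM of Vegfa. Slc2a1, which encodes the glucose carrier GLUT1 and is also known from brain vessels, was lower in tumour than in other tissue in both TREAT areas, with log2 differences of -0.43 and -0.06. In both Vehicle areas it was higher in tumour, with log2 differences of 0.51 and 0.40. Ddit4, whose product restrains mTORC1, split in the same way, with -0.55 and -0.78 in TREAT and 0.16 and 0.12 in Vehicle. Its highest region was led by the myelin gene Mobp, at 254 CPM.

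Ndrg1, a hypoxia-induced gene that oligodendrocytes also express, reached 342 CPM in the same Mobp-led region. In tumour spots it had 2.85 and 2.23 CPM in TREAT and 4.41 and 3.95 CPM in Vehicle. Tumour over other tissue was -5.01 to -4.54 on the log2 scale. Bnip3, a receptor for the removal of mitochondria, was -2.39 to -1.87, with its highest level, 77.3 CPM, in a Tnnt1-led region. Ankrd37, an ankyrin repeat protein induced by HIF, was -1.76 to -0.99. Adm, which encodes the vessel-dilating peptide adrenomedullin, was -1.61 to -0.35 and had its highest level, 28.6 CPM, in the Tnnt1-led region. For these 4 genes the other tissue spots gave the higher reading in all 4 areas. Their tumour sums were also small, at 17, 45, 84 and 118 UMIs for Ndrg1 in the order TREAT 1+4, TREAT 2+3, Vehicle 1+4 and Vehicle 2+3. A spot is a small region that can hold several cells of different types.

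**Figure D1:**
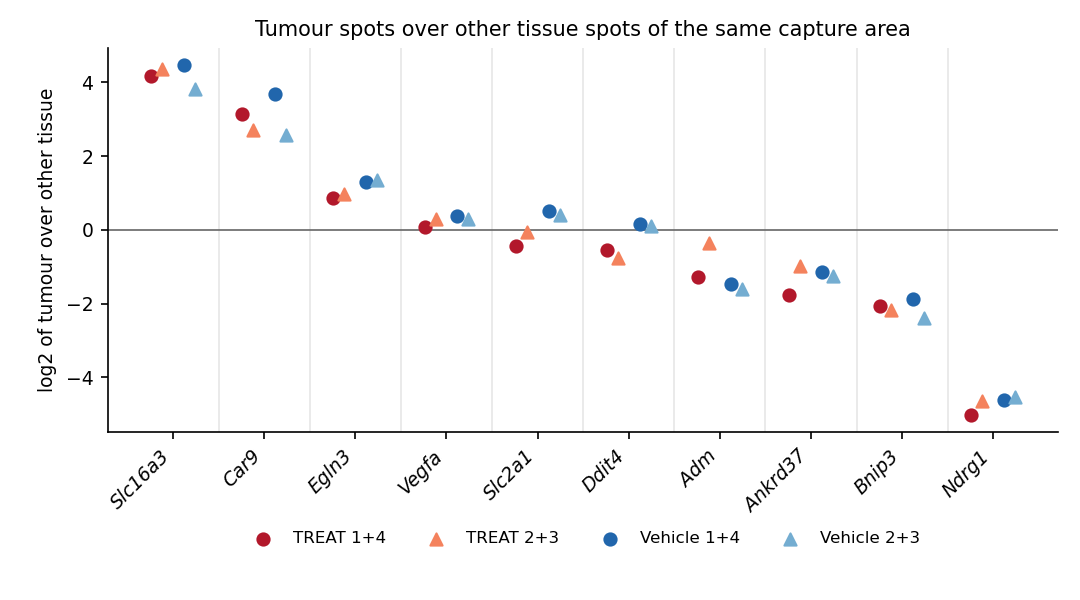
Log2 of the level in tumour spots over that in other tissue spots (y axis) for each gene (x axis), 1 point per capture area, TREAT in red and Vehicle in blue. Slc16a3 and Car9 lie between 2.58 and 4.46 in every area, Ndrg1 lies at or below -4.54, and Slc2a1 and Ddit4 lie above 0 in the Vehicle areas and below 0 in the TREAT areas.

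The design sets hydrogel-treated against non-treated brains with regard to tumour regrowth. In tumour spots, Slc2a1, Slc16a3 and Ddit4 were lower in TREAT, and these 3 calls held under every alternative that was run for this comparison. Vegfa, Car9 and Ndrg1 were lower too, with calls that were lost under library totals. With the tumour regions cut at clustering resolution 1.0, 4 of the 10 were called lower, beside 3785 of all 19716 genes tested. Car9 and Ndrg1 were not called there. No gene of the 10 was called higher in TREAT, and Egln3, Bnip3, Ankrd37 and Adm did not pass the test. The test was edgeR's quasi-likelihood F-test on the summed counts, with Benjamini-Hochberg adjustment over all 19449 genes tested and a threshold of 0.05. Of all genes tested, 20.4% were called lower and 12.7% higher, against 6 of the 10 lower and 0 of the 10 higher. At an unadjusted p under 0.05 with edgeR, 8 of the 10 and 9139 of all 19449 genes differed. DESeq2 also called 6 of the 10, none of them higher, beside 3425 lower and 506 higher over all genes. The median log2 difference was -0.90 over the 10 genes and 0.04 over all genes.

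Slc2a1 had 139 and 250 CPM in TREAT, against 440 and 466 CPM in Vehicle. Both TREAT areas lay below both Vehicle areas, and the TREAT areas also differed from each other. The log2 difference was -1.68 ± 0.22 (SE, adjusted p = 2.32e-05, edgeR). By piece of tissue it had 137, 224 and 259 CPM in the TREAT pieces, against 486, 392, 466 and 465 CPM in the Vehicle pieces. The pieces of the groups did not overlap. Here and below, a lack of overlap is a description, since its share over all genes was not counted. Slc16a3 had 85.6 and 111 CPM in TREAT, against 190 and 167 CPM in Vehicle, a log2 difference of -1.33 ± 0.18 (adjusted p = 4.09e-05, edgeR). Its pieces, at 85.6, 117 and 108 CPM in TREAT and at 208, 171, 162 and 176 CPM in Vehicle, did not overlap either. Ddit4 had 64.8 and 77.4 CPM in TREAT, against 126 and 125 CPM in Vehicle, a log2 difference of -1.28 ± 0.18 (adjusted p = 3.87e-05, edgeR). Its pieces did overlap, with 64.5, 108 and 66.7 CPM in TREAT and 135, 116, 151 and 80.5 CPM in Vehicle.

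Vegfa had 55.2 and 44.5 CPM in TREAT, against 65.4 and 64.7 CPM in Vehicle. The areas did not overlap and the log2 difference was -0.85 ± 0.19 (adjusted p = 0.00219, edgeR). The Vehicle pieces were uneven, at 83.3 and 46.9 CPM in Vehicle 1+4 and at 73.9 and 48.4 CPM in Vehicle 2+3, and the TREAT pieces had 54.6, 52.0 and 41.9 CPM. Car9 had 24.6 and 27.1 CPM in TREAT, against 45.1 and 27.1 CPM in Vehicle, so that Vehicle 2+3 lay level with TREAT 2+3. By piece it had 23.3, 31.5 and 25.5 CPM in TREAT and 58.5, 31.3, 22.3 and 35.5 CPM in Vehicle, with overlap. Its log2 difference of -0.95 ± 0.23 (adjusted p = 0.00501, edgeR) was -0.49 without Vehicle 1+4 (adjusted p = 0.238, edgeR). At resolution 1.0 it was -0.52 (adjusted p = 0.0749, edgeR). Ndrg1 differed by -1.24 ± 0.33, and by -0.99 without TREAT 2+3 (adjusted p = 0.0967, edgeR). At resolution 1.0 its sign changed, to 0.19 (adjusted p = 0.598, edgeR).

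Egln3 had 35.2 and 42.1 CPM in TREAT, against 38.5 and 40.1 CPM in Vehicle, with overlapping areas. Its log2 difference was -0.48 ± 0.19 (adjusted p = 0.0501, edgeR). Without TREAT 2+3 it was called lower, at -0.60. Bnip3 had 14.6 and 12.6 CPM in TREAT, against 17.8 and 11.0 CPM in Vehicle. Without Vehicle 2+3 it was called lower, at -0.92. Ankrd37 had 5.86 and 6.78 CPM in TREAT, against 5.09 and 6.69 CPM in Vehicle. Adm had 4.02 and 5.05 CPM in TREAT, against 3.20 and 2.78 CPM in Vehicle, and its fitted log2 difference was 0.18.

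**Figure D2:**
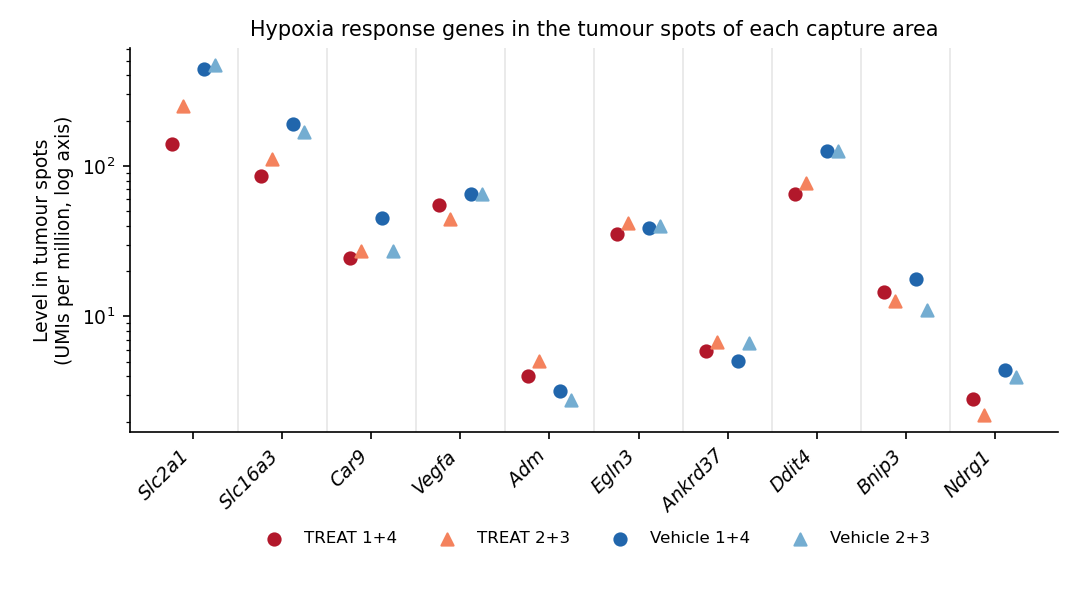
Level in tumour spots in CPM (y axis, log scale) of each gene (x axis), 1 point per capture area, TREAT in red and Vehicle in blue. Slc2a1 lies at 139 and 250 in TREAT and at 440 and 466 in Vehicle, and Egln3 at 35.2 and 42.1 in TREAT and at 38.5 and 40.1 in Vehicle.

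The CPM ratios and the fitted differences are not the same quantity. The fit scales by TMM, which sets most genes as unchanged, and CPM scales by all UMIs of the spots. With library totals as the scaling, the median log2 difference of all genes was 0.50 in place of 0.04. The calls then split into 7729 higher and 1400 lower, 39.7% and 7.2% of all genes tested, where TMM gave 2477 higher and 3976 lower and DESeq2 gave 506 higher and 3425 lower. Slc2a1, Ddit4 and Slc16a3 were still called lower with library totals, at -1.21, -0.81 and -0.86. Vegfa, Car9 and Ndrg1 kept their sign without a call, at -0.39, -0.47 and -0.77, and Ankrd37 changed sign, to 0.11. The tumour spots of TREAT were also deeper, with a median of 32768 and 36158.5 UMIs in TREAT and 21051 and 22238 UMIs in Vehicle. After thinning each spot to 5000 UMIs, 4 of the 10 were called lower, beside 1562 of all 13337 genes tested. Car9 and Ndrg1 were not called there.

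Other cell types in the tumour spots moved with the groups as follows. These counts of calls use TMM. Of 10 endothelial markers, whose cells also carry Slc2a1 in normal brain, 3 were lower and none was higher. Their summed level was 189 and 253 CPM in TREAT and 246 and 269 CPM in Vehicle. Of 10 oligodendrocyte markers, 2 were higher, with sums of 406 and 512 CPM in TREAT and 287 and 318 CPM in Vehicle, while Ndrg1 was lower. Of 10 neuron markers, 4 were lower, with sums of 53.7 and 80.2 CPM in TREAT and 110 and 71.4 CPM in Vehicle. Of 10 macrophage markers, 2 were lower, with sums of 851 and 436 CPM in TREAT and 587 and 742 CPM in Vehicle. Of the 16 proliferation markers, 11 were lower, with sums of 2598 and 2398 CPM in TREAT and 3106 and 2867 CPM in Vehicle. Of 15 tested mesenchymal glioma markers, 9 were lower, with sums of 5996 and 4753 CPM in TREAT and 6020 and 5752 CPM in Vehicle. Of 6 choroid plexus markers, 3 were higher, with sums of 126 and 61.8 CPM in TREAT and 30.4 and 17.5 CPM in Vehicle. Fewer markers were called of the other types, with 1 of 8 fibroblast markers higher, and 1 of 8 astrocyte, 2 of 7 reactive glia and 1 of 7 plasma cell markers lower. No listed marker of the endothelial, oligodendrocyte, neuron, macrophage, proliferation and choroid plexus lists was at 0 in the tumour spots of any area. Their part in the differences of the 10 genes was not tested. In sums over spots, fewer cells of a type and less RNA per cell cannot be told apart.

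Promoter windows are shown for 4 of the genes that were lower in TREAT, to show where the letters of the HIF core lie in them. They run from 250 bases before to 50 after a listed start and were taken from RefSeq on GRCm38.p6. Windows were listed for 9 of the 10 genes, all but Ndrg1. The core letters ACGTG or GCGTG, searched on both strands and printed in capitals, were in 9 of 10 such windows (Vegfa had 2 windows, 1 without a match). They were in 43.8% of all 32851 windows of that length. No match overlapped another in the 4 windows printed. A match describes the letters and is not a site that was shown to be used. Slc2a1 lies at chr4:119108495-119108794 (plus strand), Slc16a3 at chr11:120948817-120949116 (plus strand), Ddit4 at chr10:59951721-59952020 (minus strand) and Car9 at chr4:43506776-43507075 (plus strand).
Slc2a1: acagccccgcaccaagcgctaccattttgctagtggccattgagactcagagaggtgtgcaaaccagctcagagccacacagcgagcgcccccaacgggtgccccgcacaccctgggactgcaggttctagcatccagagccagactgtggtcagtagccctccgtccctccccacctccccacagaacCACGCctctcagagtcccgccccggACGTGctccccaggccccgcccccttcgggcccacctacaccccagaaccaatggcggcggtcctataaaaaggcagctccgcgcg
Slc16a3: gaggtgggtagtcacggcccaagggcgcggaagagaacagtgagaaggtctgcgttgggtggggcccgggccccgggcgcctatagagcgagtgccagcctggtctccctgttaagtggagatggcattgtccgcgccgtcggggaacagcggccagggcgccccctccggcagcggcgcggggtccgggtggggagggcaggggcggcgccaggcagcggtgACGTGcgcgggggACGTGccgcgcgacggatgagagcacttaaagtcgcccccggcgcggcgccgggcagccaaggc
Ddit4: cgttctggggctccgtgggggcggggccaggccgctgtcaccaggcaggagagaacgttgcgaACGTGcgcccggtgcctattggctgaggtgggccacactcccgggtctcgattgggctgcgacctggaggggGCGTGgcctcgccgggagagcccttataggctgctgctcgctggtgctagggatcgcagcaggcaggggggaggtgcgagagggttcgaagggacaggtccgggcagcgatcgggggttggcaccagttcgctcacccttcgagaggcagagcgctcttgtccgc
Car9: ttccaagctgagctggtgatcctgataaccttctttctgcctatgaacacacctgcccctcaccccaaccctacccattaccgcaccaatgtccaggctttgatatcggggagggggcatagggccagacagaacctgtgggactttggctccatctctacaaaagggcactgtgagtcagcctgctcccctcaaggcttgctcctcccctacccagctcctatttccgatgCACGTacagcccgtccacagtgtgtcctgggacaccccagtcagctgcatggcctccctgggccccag
Slc2a1, Ddit4 and Slc16a3 each held 2 matches and Car9 held 1. Bnip3 held 5, of which an ACGTG pair read on both strands of the same CACGTG, and its level did not pass the test between the groups.

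Of 45 other features of HIF regulators and targets, 19 were called lower and 2 higher in TREAT tumour spots with TMM, with a median log2 difference of -0.36 against 0.04 over all genes. With library totals 6 of the 45 were lower and 11 higher, where 1400 of all 19449 genes were lower and 7729 higher, and the median was 0.10 against 0.50 over all genes. Hif1a itself had 133 and 141 CPM in TREAT and 101 and 96.7 CPM in Vehicle, with a fitted difference of 0.01 that did not pass the test, and it is named here outside the rule for named genes. Among the called regulators, Egln1, the main oxygen-sensing hydroxylase, was lower by a log2 difference of -0.99 ± 0.18, and Hif3a, which can oppose the other alpha subunits, by one of -0.999 ± 0.22. Among the glycolytic genes, Hk2 (hexokinase), Pfkp (phosphofructokinase) and Pgm2 (phosphoglucomutase) were lower, at -0.87 ± 0.18, -1.01 ± 0.19 and -1.16 ± 0.21. Eno1, an enolase with a near-identical copy in the mouse genome that makes its count uncertain, was at -1.14 ± 0.20. Kdm3a, a histone demethylase, and Plod2, which modifies collagen, were lower at -1.03 ± 0.20 and -0.84 ± 0.17. The 2 that were higher were Bhlhe40, a transcriptional repressor, at 0.996 ± 0.18, and Lox, which crosslinks collagen, at 0.93 ± 0.30. Bhlhe40 had 139 and 116 CPM in TREAT, against 44.3 and 48.6 CPM in Vehicle, with no overlap.

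Ddit4 and Vegfa are also induced by the stress factor Atf4. Of 11 features of stress response genes around Atf4, 8 were lower in TREAT tumour spots and none was higher, with a median log2 difference of -0.85. The share of all genes called lower was 20.4%, as given above, and all of these calls use TMM. The part of the stress response genes in the lower Ddit4 and Vegfa levels was not tested.

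Over all tissue spots, Slc16a3, Car9 and Slc2a1 were lower in TREAT, 3 of the 10, and none was higher. Of all 20265 genes tested there, 5.67% were lower and 1.11% higher. Slc16a3 had 19.1 and 51.6 CPM in TREAT, against 120 and 124 CPM in Vehicle, with a log2 difference of -2.11 ± 0.42 (adjusted p = 0.0367, edgeR). Car9 had 8.86 and 14.97 CPM in TREAT, against 29.0 and 22.2 CPM in Vehicle, a difference of -1.44 ± 0.33. Slc2a1 had 190 and 262 CPM in TREAT, against 398 and 447 CPM in Vehicle, a difference of -1.24 ± 0.28. In these 3 genes the areas of the groups did not overlap, and the share of all genes without overlap was not counted. Tumour spots made up 5.40% and 18.5% of the spots in TREAT, against 28.6% and 35.8% in Vehicle, and Slc16a3 and Car9 were among the genes with the higher level in tumour. The part of the tumour share in these differences was not tested. None of the 10 was called without Vehicle 1+4 or without Vehicle 2+3, which left 7 and 14 calls over all genes. Only Slc16a3 was called without TREAT 1+4, at -1.56. Without TREAT 2+3, which left 1 TREAT area, the Ddit4 difference was -0.78, where it was -0.61 with all areas. With library totals 2 of the 10 were called, and all genes then split into 2920 higher and 685 lower, against 224 higher and 1149 lower with TMM. The other 7 genes did not pass the test, from Vegfa at -0.69 to Ankrd37 at 0.40.

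Position within the tumour was measured as grid steps to the nearest tissue spot outside it. Inner spots were 4 or more steps away and outer spots 1 or 2 steps. Tumour touched the gap between the pieces, and positions without tissue did not count as outside. Spots of the Ccn5-led and Igha-led regions did count as outside, so outer spots can border these regions. Their proliferation markers summed to 1369 and 2599 CPM, against 2957 CPM in the Lgals7-led and 2449 CPM in the Col9a1-led tumour region. Ddit4 was the 1 gene of the 10 that was called, and it was higher in inner spots. Over the 15086 genes tested, inner spots were higher for 2% and lower for 2.07%. In TREAT, Ddit4 had 67.0 and 82.6 CPM in inner spots, against 64.6 and 70.1 CPM in outer spots. In Vehicle it had 132 and 138 CPM in inner spots, against 115 and 105 CPM in outer spots. Inner spots were higher in all 4 areas, with a log2 difference of 0.30 ± 0.06 (adjusted p = 0.00363, edgeR with the capture area as a block). The call was lost without Vehicle 2+3, at 0.22 (adjusted p = 0.179, edgeR), and with DESeq2, at 0.29. By bins of 1 to 2, 3 to 4, 5 to 6, 7 to 8, and 9 or more steps, Ddit4 stood at 70.1, 77.5, 84.8, 82.8 and 70.5 CPM in TREAT 2+3. In TREAT 1+4, the bins with at least 20 spots gave 64.6, 63.1 and 66.7 CPM, up to 6 steps. It stood at 115, 120, 127, 150 and 124 CPM in Vehicle 1+4 and at 105, 101, 120, 155 and 163 CPM in Vehicle 2+3. The deepest bin was thus the highest in Vehicle 2+3, and in TREAT 2+3 it was level with the outermost one. The inner and outer sums and the bins pooled both pieces of an area, and the block was the area and not the piece. By left and right piece Ddit4 had 151 and 80.5 CPM in Vehicle 2+3 and 108 and 66.7 CPM in TREAT 2+3. Depth and piece were thus not separated.

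Car9 was lower in inner spots in all 4 areas without passing the test. It had 23.1 and 24.5 CPM in inner spots of TREAT, against 28.2 and 37.0 CPM in outer spots, and 45.2 and 25.4 CPM in inner spots of Vehicle, against 49.7 and 32.4 CPM in outer spots. The log2 difference was -0.29 ± 0.09 (adjusted p = 0.059, edgeR). It was called without TREAT 1+4 and without Vehicle 1+4, at -0.31 and -0.40, with library totals, at -0.34, and with inner spots at 3 or more steps, at -0.33. At resolutions 0.4 and 1.0 it was called too, at -0.33 and -0.49. With off-tissue positions counted as outside, it was 0.02. Slc16a3 had a difference of 0.19 ± 0.06 (adjusted p = 0.0762, edgeR) and was higher in inner spots in 3 of 4 areas. Slc2a1, Adm, Egln3, Bnip3, Ankrd37 and Ndrg1 did not pass the test, with differences between -0.58 (Ndrg1) and 0.11 (Slc2a1). At resolution 1.0, where 2648 of all genes were called, Ndrg1 was called lower in inner spots, at -2.31 (adjusted p = 2.07e-05, edgeR), as were Adm, at -0.66, and Bnip3, at -0.49. At resolution 0.4, with 1105 calls over all genes, Ndrg1 was called lower, at -0.90, and Slc16a3 higher, at 0.23.

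The Vegfa values of inner against outer spots had opposite signs in the groups. In TREAT it had 51.2 and 44.8 CPM in inner spots, against 57.8 and 46.3 CPM in outer spots. In Vehicle it had 72.4 and 69.1 CPM in inner spots, against 55.4 and 51.7 CPM in outer spots. Here too the pieces were pooled, and depth and piece were not separated. By left and right piece Vegfa had 83.3 and 46.9 CPM in Vehicle 1+4 and 73.9 and 48.4 CPM in Vehicle 2+3. In Vehicle 1+4 its level at 9 or more steps was 121 CPM, from 29 spots, and in Vehicle 2+3 it was 79.8 CPM, from 231 spots. The difference of the position effect, TREAT minus Vehicle, was -0.57 ± 0.13 on the log2 scale, with an adjusted p = 0.136 over 17411 genes (edgeR). It thus did not pass the test. None of the 10 genes was called in this comparison by edgeR or by DESeq2. With edgeR, 2 of the 10 (Vegfa and Car9) had an unadjusted p under 0.05, as did 1336 of all 17411 genes. Over all genes 0.0747% were called. At resolution 1.0, with 109 calls over all genes, Vegfa was called, at -0.64 (adjusted p = 0.0413, edgeR), and so was Car9, at -0.77 (adjusted p = 0.0362, edgeR). Over both groups Vegfa had a difference of 0.26 ± 0.08 (adjusted p = 0.0794, edgeR), and it was called without TREAT 1+4, at 0.32, and without TREAT 2+3, at 0.34.

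**Figure D3:**
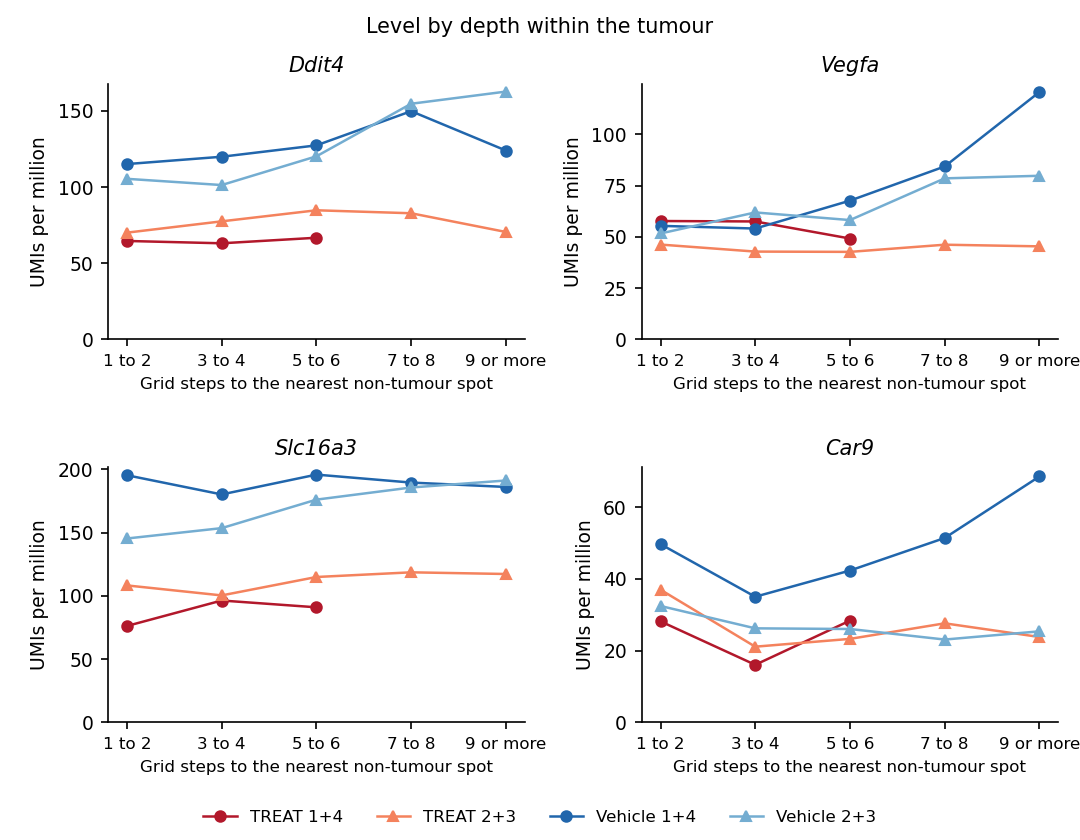
Level in CPM (y axis) of Ddit4, Vegfa, Slc16a3 and Car9 by grid steps to the nearest tissue spot outside the tumour (x axis), 1 line per capture area, TREAT in red and Vehicle in blue, with bins of under 20 spots left out. Ddit4 reaches 163 at 9 or more steps in Vehicle 2+3, and Vegfa reaches 121 at 9 or more steps in Vehicle 1+4, from 29 spots.

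Among the other pathway genes, Plin2, a lipid droplet protein, and Eno1 were higher in inner spots, at 0.22 ± 0.06 and 0.15 ± 0.04. P4ha1, which hydroxylates collagen, was lower at -0.21 ± 0.06. The rest of the 45 features were not called, and 2 higher and 1 lower stand beside 2% and 2.07% of all genes. None of the 45 was called with DESeq2, without Vehicle 2+3 or with inner spots at 5 or more steps, and with library totals none was higher and 2 were lower. Of the 11 stress response features, 7 were higher in inner spots and none was lower. Markers of other tissue moved with position: 9 of 9 tested oligodendrocyte markers, 6 of 9 neuron markers and 6 of 6 fibroblast markers were lower in inner spots. Oligodendrocyte markers summed to 323 and 443 CPM in inner spots of TREAT, against 488 and 665 CPM in outer spots, and to 251 and 271 CPM in inner spots of Vehicle, against 360 and 446 CPM in outer spots. Their part in the position differences was not tested.

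Co-occurrence within single tumour spots was near 0. After thinning each tumour spot to 5000 UMIs, the 10 genes together had a mean of 2.09 and 2.81 UMIs per spot in TREAT and 4.67 and 4.59 UMIs in Vehicle. Over the 45 pairs of genes, the Pearson correlation across tumour spots, averaged over the 4 areas, ran between -0.04 and 0.06. At such counts a correlation of this size is no finding. The number of spots behind it was 181 and 556 in TREAT and 904 and 1248 in Vehicle, and the spots of an area share 1 library. Averaging each spot with its neighbours, 7 positions at a time, gave at most 0.16 as the mean over the 4 areas. This was for Vegfa with Ddit4, whose value was 0.13 to 0.22 over the areas. These correlations pooled the pieces of an area. In TREAT 2+3, Vehicle 1+4 and Vehicle 2+3, both Vegfa and Ddit4 were higher in the left piece than in the right one. The value in TREAT 1+4, with 178 of its 181 tumour spots in 1 piece, was 0.13. The part of the pieces in these correlations was not tested. Other pairs spread more widely, with Slc2a1 and Vegfa at 0.32 in Vehicle 1+4 and at -0.04 in TREAT 2+3. Neighbourhoods overlap, so these points are not separate.

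A sharper reading asked whether a gene was higher in tumour spots picked by the other 9. Spots at or above the 90th percentile of the summed thinned counts of the other 9 genes were compared with the remaining tumour spots of the same area. None of the 10 genes was called by edgeR in these 10 fits, in which 0.125% to 0.399% of all genes were called. DESeq2 also called none of the 10, and 4 of the 10 had an unadjusted p under 0.05 with edgeR. Over all genes, those with such a p ran from 780 of 14414 to 1025 of 13941 in the 10 fits. Slc16a3 came closest, at 0.16 ± 0.04 (adjusted p = 0.134, edgeR). It had 95.4 and 116 CPM in the picked spots of TREAT, against 84.2 and 109 CPM in the others, and 229 and 179 CPM in the picked spots of Vehicle, against 186 and 165 CPM in the others. The picked spots were higher in all 4 areas. Slc2a1 was also higher in all 4 areas, at 0.10 ± 0.04 (adjusted p = 0.634, edgeR).

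Car9 had the largest fitted value of the 10, 0.33 ± 0.10 (adjusted p = 0.226, edgeR). It had 31.6 and 22.4 CPM in the picked spots of TREAT, against 22.9 and 27.8 CPM in the others, and 62.7 and 32.0 CPM in the picked spots of Vehicle, against 41.5 and 26.1 CPM in the others. TREAT 2+3 was thus the area in which Car9 was lower in the picked spots. Without it Car9 was called, at 0.46 (adjusted p = 0.0149, edgeR), and it was also called when spots were picked by mean rank, at 0.44, or with no filter on low counts, at 0.34. Slc16a3 was called at the 80th percentile, at 0.17 (adjusted p = 0.00185, edgeR). Ddit4 had 0.16 ± 0.06, Vegfa 0.11 ± 0.07 and Egln3 -0.03 ± 0.09. In all, 8 of the 10 values were above 0, with a median of 0.14.

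**Figure D4:**
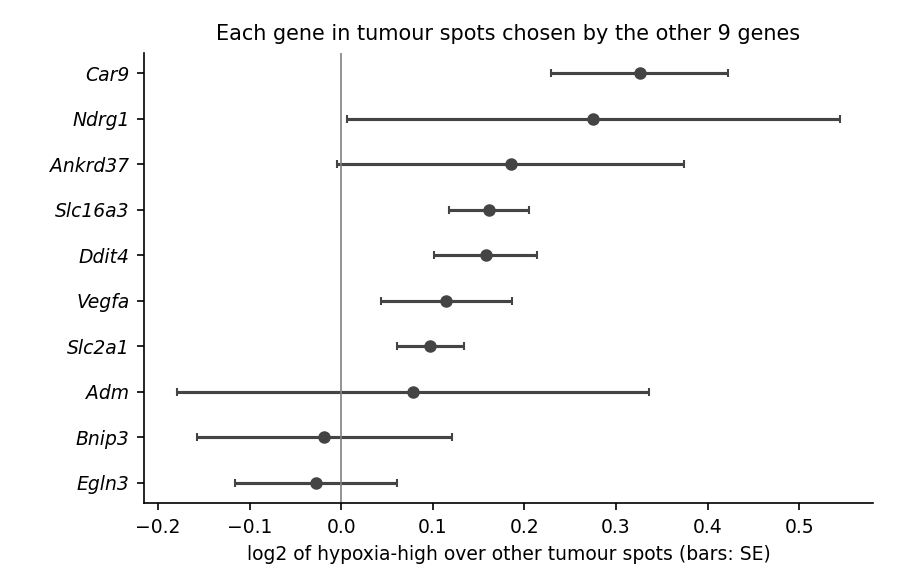
Log2 of the level in tumour spots picked by the other 9 genes over that in the remaining tumour spots (x axis) for each gene (y axis), points with SE bars from the edgeR fit over 4 capture areas. Car9 lies highest at 0.33 and Egln3 lowest at -0.03, and none of the 10 passed the test after adjustment.

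Spots with a high sum over the 10 genes, called hypoxia-high below, were those at or above the 90th percentile of the summed thinned counts. The name stands for this sum, to which Slc2a1 and Slc16a3 gave the most. Their means per thinned spot were 2.38 and 0.86 UMIs in Vehicle 2+3, and 0.59 and 0.44 UMIs in TREAT 1+4. Not every gene was higher in these spots in every area, as with Ndrg1 in both TREAT areas and Adm in Vehicle 2+3. The cut was 4 and 5 UMIs in TREAT and 8 and 8 UMIs in Vehicle. With ties at the cut, this gave 36 of 181 and 89 of 556 spots in TREAT and 105 of 904 and 127 of 1248 spots in Vehicle. The picked share was thus larger in TREAT. Their median distance to the outside was 3 and 6 steps in TREAT, against 3 and 4 steps for the other tumour spots, and 5 and 5 steps in Vehicle, against 4 and 4 steps. Of the neighbours of hypoxia-high spots, 25.9% and 16.2% in TREAT and 19.0% and 14.1% in Vehicle were hypoxia-high. Of the neighbours of other tumour spots the shares were 18.4% and 16.1% in TREAT and 10.8% and 9.78% in Vehicle. The largest connected patches held 14 and 7 spots in TREAT and 7 and 4 spots in Vehicle, and single spots made up 8 of 15 and 36 of 52 patches in TREAT and 41 of 61 and 55 of 85 patches in Vehicle. More than 1 patch was thus present in every area, and in TREAT 2+3 the neighbours of the 2 kinds of spot were hypoxia-high at close to the same share. These shares have no test, since the spots of an area are not replicates. Neighbour shares and patch sizes depend on the share of spots picked, so they are not compared between the groups.

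**Figure D5:**
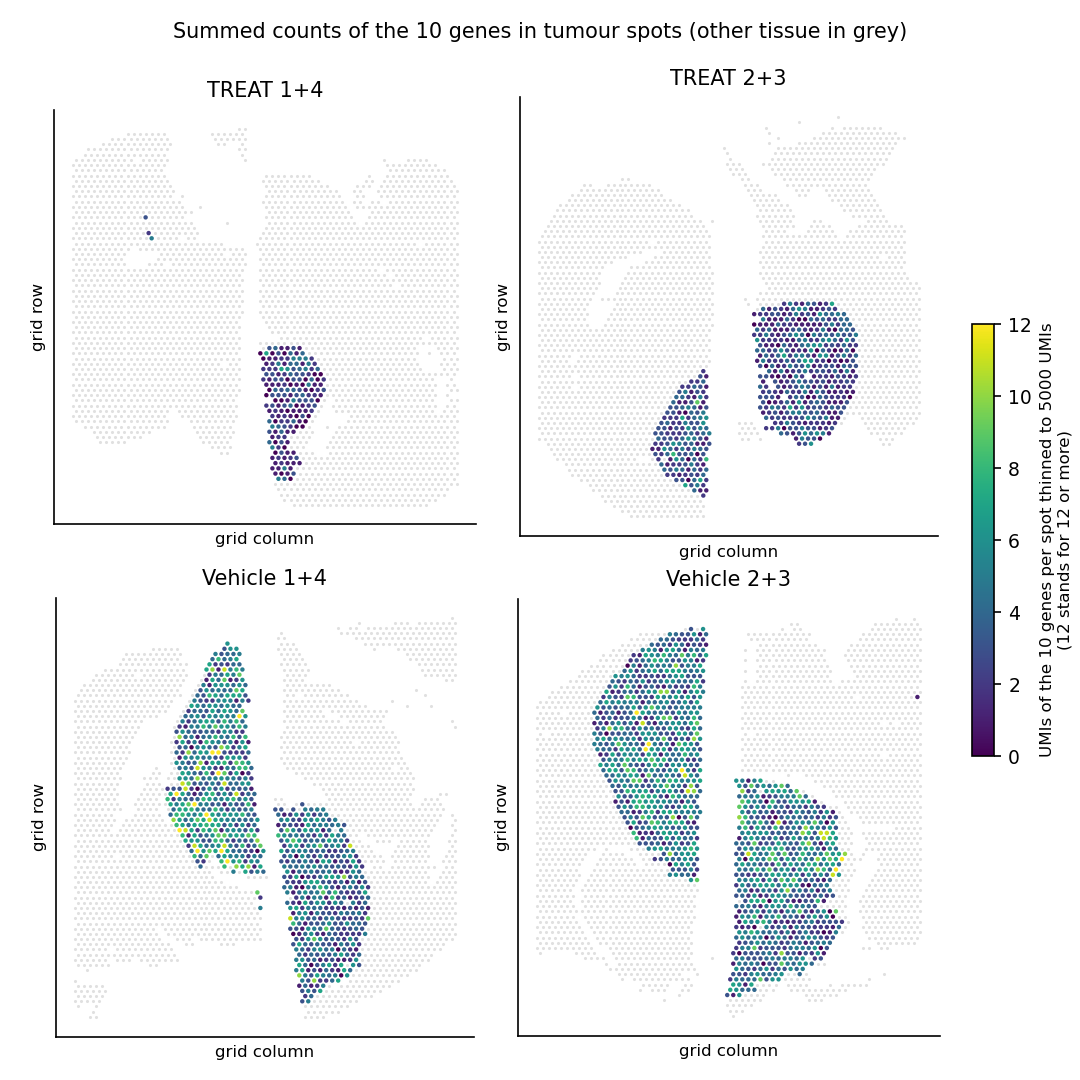
Maps of the 4 capture areas by grid column and row, TREAT above Vehicle, with tumour spots coloured by the summed UMIs of the 10 genes after thinning to 5000 UMIs per spot and other tissue in grey. Means are 2.09 and 2.81 UMIs in TREAT and 4.67 and 4.59 UMIs in Vehicle, and the Vehicle areas hold the brighter spots.

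Genes outside the set were then compared between hypoxia-high and other tumour spots. Of 13419 genes tested, 0.238% were higher and none was lower. The higher ones were 5 of the 10 genes, whose counts picked the spots and which are not read here, and 27 others. DESeq2 called 9 in all, and edgeR called 15 without TREAT 2+3. The 10 others with the smallest p included Tinagl1, a matrix protein, at 0.29 ± 0.04, Wnt7b, a secreted ligand, at 0.30 ± 0.05, and Spp1, or osteopontin, at 0.39 ± 0.07. Lcn2, an iron-binding lipocalin, was at 0.31 ± 0.05, Lgals3, or galectin-3, at 0.24 ± 0.04, and Mt2, a metallothionein, at 0.29 ± 0.05. Padi4, which citrullinates proteins, Ctsl, a lysosomal protease, Tead4, a transcription factor of the Hippo pathway, and Csn3, a casein, were at 0.31, 0.20, 0.48 and 0.28.

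Tinagl1 had 1020 and 706 CPM in hypoxia-high spots of TREAT, against 946 and 559 CPM in the others. It had 1022 and 936 CPM in hypoxia-high spots of Vehicle, against 716 and 843 CPM in the others, and so was higher in all 4 areas. Spp1 had 527 and 307 CPM in hypoxia-high spots of TREAT, against 475 and 160 CPM in the others, and 319 and 432 CPM in hypoxia-high spots of Vehicle, against 283 and 367 CPM in the others. Of the lists, 2 of 11 stress response features, 2 of 15 tested mesenchymal glioma markers, 1 of 6 reactive glia markers and 1 of 10 macrophage markers were called. The macrophage markers summed to 863 and 587 CPM in hypoxia-high spots of TREAT, against 848 and 407 CPM in the others, and to 590 and 830 CPM in hypoxia-high spots of Vehicle, against 586 and 733 CPM in the others. These sums include Spp1, which was the 1 macrophage marker called. In TREAT 1+4 and Vehicle 1+4 the sum rose by less than Spp1 alone, and in TREAT 2+3 and Vehicle 2+3 by more. The part of these lists was not tested. None of 43 other hypoxia pathway features was called, by edgeR or by DESeq2, and 31 of the 43 lay above 0, with a median of 0.08 against 0.01 over all genes.

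Across single thinned tumour spots, the genes whose pattern was most like that of the 10 together were Lcn2, Tinagl1, Spp1, Col9a3, Rhob, Dusp4, Pxdc1, Ier3, Trib3 and Padi4, among 5480 genes with a mean of at least 0.2 UMIs. Likeness was the Pearson correlation of log counts across the spots of an area, averaged over the 4 areas. It was 0.11 for Lcn2 and 0.08 for Padi4, against a median of 0.0004 over the genes considered, so even the nearest patterns were only weakly alike.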

How the data were processed

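Spatial counts of 4 capture areas were used as deposited: whole-number UMI counts per probe-set feature and spot, made by the authors with Space Ranger 2.1.1 on mm10, per the submitters' processing notes, which also name R 4.4.1 and Seurat. Of 32589 features, 304 marked deprecated were left out, and tissue spots below 500 UMIs were dropped. Spots were clustered with scanpy 1.11.5 (2000 variable genes, 30 components, 15 neighbours) and leidenalg 0.10.2 at resolution 0.6, under Python 3.11.15. The share of proliferation level that a tumour region needed, 0.5 of the highest, was set after the regions were seen. No doublet caller was run on spots. Counts were summed per area and tested with edgeR 4.0.16 in R 4.3.3 (TMM, filterByExpr, quasi-likelihood F-test, Benjamini-Hochberg), with the area as a block where both spot classes came from 1 area. The alternatives were DESeq2 1.42.0, library totals, no filter, other resolutions, distances and percentiles, thinning to 5000 UMIs, deeper spots, members allowed in the clustering, a replicate block and leaving out each area. The tests were also run on simulated counts with a small set of genes changed in both directions. That setting does not probe the choice of scaling. All 10 members are named. Of the other hypoxia genes, at most 8 per direction past the threshold are named by smallest p. Of all other genes, at most 10 per direction are named in hypoxia-high spots, and 10 by likeness of pattern. Members and lists were chosen with earlier results of these data known. With 2 areas per group, precision is set by the areas, not by the depth of 34196413 to 56150197 UMIs per area.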

Additional observations from a re-analysis of the deposited data

Results flagged for a closer look

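For 5 of the 10 genes, the difference between tumour spots picked by the other 9 genes and the remaining tumour spots had one sign in both TREAT areas and the opposite sign in both Vehicle areas. The difference between the groups was not tested for these 5. Over the 13409 other genes tested, 11.3% to 12.7% had such opposite signs, depending on which gene was left out when spots were picked. Values are CPM in picked spots minus CPM in the others. Vegfa had -8.68 and -0.564 in TREAT, against 18.7 and 0.668 in Vehicle. Bnip3 had -1.22 and -3.85 in TREAT, against 5.63 and 0.0554 in Vehicle. Ndrg1 had -2.45 and -1.18 in TREAT, against 0.802 and 2.71 in Vehicle. Ankrd37 had -0.804 and -1.14 in TREAT, against 2.88 and 1.57 in Vehicle. Adm ran the other way, with 1.18 and 1.17 in TREAT, against -0.336 and -0.816 in Vehicle. Several of these values are under 1 CPM, and the genes other than Vegfa have low counts in tumour spots.

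For 1 of the 10 genes, Vegfa, the level in inner minus that in outer tumour spots was -6.60 and -1.43 CPM in TREAT, against 17.0 and 17.5 CPM in Vehicle. This difference was tested, and it did not pass the threshold after adjustment over all genes (adjusted p = 0.136, edgeR). At clustering resolution 1.0 it did, at a log2 difference of -0.64 (adjusted p = 0.0413, edgeR). Over the 15076 other genes tested, 11.2% had such opposite signs. The pieces of an area were pooled here, so depth and piece were not separated.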

How the results depend on the processing

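Of 616 values of single genes under alternatives, 521 kept their direction and their side of the threshold, 19 lost a call, 27 gained one and 49 changed sign, none of the 49 past the threshold. In tumour spots, 6453 genes differed between TREAT and Vehicle, against 3931 with DESeq2, 2379 after thinning and 2607 (without Vehicle 1+4) to 6599 with an area left out. Library totals left 3 of the 10 genes called, and leaving out areas left 5 to 7. Over all tissue, 1373 genes were called, against 3665 with DESeq2, 3605 with library totals and 7 to 4770 with an area left out (0 to 4 of the 10 genes). With the label numbers as a replicate block, 9100 genes and 6 of the 10 were called. The labels do not say that the numbers pair the areas, and deviations of same-numbered areas correlated at -0.0789 in tumour and 0.361 over all tissue. Between inner and outer spots, 613 genes were called, against 193 with DESeq2, 1105 at resolution 0.4, 2648 at resolution 1.0, 408 with inner spots at 5 or more steps, 140 after thinning and 251 (without Vehicle 2+3) to 668 with an area left out. Of the 10 genes, 0 were called with DESeq2, 2 with library totals, 4 and 5 at resolutions 0.4 and 1.0, 2 with inner spots at 3 or more steps, and 0 to 3 with an area left out. For the position difference between groups, 13 genes were called, against 1 with DESeq2, 7 with library totals, 26 with no filter, 109 at resolution 1.0, 8 and 35 with inner spots at 3 or 5 or more steps, 0 after thinning and 10 to 97 (without TREAT 1+4) with an area left out. Of the 10 genes, 2 (Vegfa and Car9) were called at resolution 1.0, and 0 to 0 with an area left out. In hypoxia-high spots, 32 genes were called, against 9 with DESeq2, 61 with no filter, 16 at resolution 1.0, 63 at the 80th percentile and 15 (without TREAT 2+3) to 36 with an area left out. Of the 10 genes, in spots picked by the other 9, 1 was called with no filter, 1 at the 80th percentile, 1 by mean rank, and 0 to 1 with an area left out. The changed signs, as log2 values with none past the threshold, were as follows, and the cause was not tested. For TREAT over Vehicle in tumour, Bnip3 was 0.094 after thinning, Ankrd37 0.11 with library totals and Ndrg1 0.19 at resolution 1.0. For inner over outer spots, Car9 was 0.021 with off-tissue positions counted as outside, Slc2a1 was -0.081 at resolution 1.0, and Egln3 was -0.0068 with library totals, -0.021 at resolution 1.0 and -0.089 after thinning. For the position difference between groups, library totals gave 0.031 for Slc2a1, 0.028 for Egln3 and 0.039 for Ndrg1. Off-tissue positions gave 0.147 for Slc2a1, 0.0082 for Slc16a3 and 0.60 for Ndrg1, and thinning gave 0.137 for Slc2a1 and 0.098 for Slc16a3. Adm was -0.137 at resolution 1.0, and Ndrg1 was 0.31 at resolution 0.4 and 0.36 with inner spots at 5 or more steps. In spots picked by the other 9, Adm was -0.099 by mean rank, Ndrg1 -0.0066 and Egln3 0.0016 with DESeq2, and Bnip3 0.0045 with no filter, 0.24 at resolution 1.0, 0.013 at the 80th percentile and 0.25 by mean rank. With an area left out, Adm ranged over -0.010 to 0.35 in tumour. Over all tissue, Adm ranged over -0.085 to 0.45, Bnip3 over -0.11 to 0.62 and Ndrg1 over -0.42 to 0.78. For inner over outer spots, Egln3 ranged over -0.039 to 0.125. For the position difference, Slc2a1 ranged over -0.126 to 0.072, Adm over -0.82 to 1.04, Slc16a3 over -0.21 to 0.149, Egln3 over -0.28 to 0.24 and Ndrg1 over -1.28 to 0.48. In spots picked by the other 9, the ranges were -0.025 to 0.152 for Vegfa, -0.132 to 0.21 for Adm, -0.18 to 0.146 for Bnip3, -0.41 to 0.496 for Ndrg1 and -0.107 to 0.076 for Egln3. Low counts limit Ndrg1, Adm and Ankrd37 in tumour spots.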
